A study of Homo sapiens with 60 samples.

Results

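The aldo-keto reductases AKR1B10, AKR1C1, AKR1C2, AKR1C3, AKR1A1 and AKR7A2 were followed through all 60 libraries of a treatment series in HT29 cells, a long-established line from a human colorectal adenocarcinoma. They are 6 of the 60675 genes of the count table, found by matching Ensembl identifiers to these symbols, and all 6 passed the filter on low counts among the 16767 genes tested. Cells were treated for 24 h with a water extract of Poria Cocos, Atractylodis Rhizoma, Glycyrrhizae Radix (licorice root), Panax Ginseng, Angelicae Gigantis Radix or Paeoniae Radix at 500, 100 or 20 µg/mL. The positive controls were wortmannin and LY294002 at 10 µM, both inhibitors of phosphoinositide 3-kinase (PI3K), and the vehicle was DMSO, given as 0.1% in the sample labels and as 2% in the series text. Of the 21 groups, 18 had 3 libraries and the 3 Paeoniae groups had 2 each. Whether replicates came from separate cultures is not stated in the labels, so the p-values measure only the spread between these libraries. HT29 is 1 cell line, and every group shares its genetic background.

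Aldo-keto reductases use NADPH to reduce aldehydes and ketones to alcohols. AKR1B10 reduces retinaldehyde and reactive aldehydes from lipid peroxidation and food, and is found in the normal small intestine and colon. AKR1C1, AKR1C2 and AKR1C3 are hydroxysteroid dehydrogenases that act on progesterone, on dihydrotestosterone and on androgen and prostaglandin precursors, respectively, and also reduce xenobiotic ketones. AKR1B10 and the AKR1C genes are well-known targets of NRF2 (gene NFE2L2), a transcription factor that KEAP1 marks for degradation until electrophiles or oxidants release it, and that acts through antioxidant response elements. AKR1A1 is the widely expressed aldehyde reductase, and AKR7A2 reduces succinic semialdehyde and aflatoxin dialdehyde.

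AKR1C1, AKR1C2 and AKR1C3 lie side by side on chromosome 10 (GRCh38), at 4963253 to 4983283 on the forward strand, 4987400 to 5018031 on the reverse strand and 5035354 to 5107686 on the forward strand. Their coding sequences are so alike that short reads can fit more than 1 of them. The first coding exons of the 3 genes, of 84 bases each, are shown because they let this likeness be seen; capitals mark the bases that differ from AKR1C1, and positions count from 1 at the first base of the start codon (GRCh38, GENCODE annotation).
AKR1C1 (chr10:4963445-4963528, forward): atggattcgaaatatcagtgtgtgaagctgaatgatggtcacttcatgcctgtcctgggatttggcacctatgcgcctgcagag
AKR1C2 (chr10:5003752-5003835, reverse): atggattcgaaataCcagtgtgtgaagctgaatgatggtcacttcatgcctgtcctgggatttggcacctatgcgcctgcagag
AKR1C3 (chr10:5048812-5048895, forward): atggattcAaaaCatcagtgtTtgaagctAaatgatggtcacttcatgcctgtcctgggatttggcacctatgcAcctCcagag
AKR1C2 differed from AKR1C1 in this exon at 1 base (T15C), and AKR1C3 at 6 bases (G9A, T13C, G22T, G30A, G75A and G79C).

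Over the whole coding sequence of 969 bases, AKR1C1 and AKR1C2 were 98% identical, with an identical run of 186 bases, longer than a read of 100 bases. AKR1C3 was 91.8% identical to AKR1C1 and 91.2% to AKR1C2. Of all 100-base stretches of their annotated transcripts, 16.7% for AKR1C1 and 23.1% for AKR1C2 also occurred in another gene, most often AKR1C2 for AKR1C1 and the reverse. The share was 1.75% for AKR1C3, 1.59% for AKR1B10 (chromosome 7, 134527592 to 134541408), 0.254% for AKR7A2 (chromosome 1, 19303965 to 19312146) and 0% for AKR1A1 (chromosome 1, 45550543 to 45570049). The expected counts were not whole numbers in 57 of the 60 libraries for AKR1C1, in 59 for AKR1C2 and in 60 for AKR1C3, and were whole in every library for the other 3 genes. Values of a single AKR1C gene therefore carry the division of shared reads. Results for a sum are given for each comparison in which an AKR1C gene passed. The AKR1C sum that was tested also held the counts of AKR1C4 and AKR1C8. AKR1C2 also overlaps an antisense gene, AL391427.1, and no source used here gives the strand setting of the counting.

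The 250 bases before the start sites of the 3 AKR1C genes are printed because these genes moved together in the extracts (RefSeq, GRCh38.p14; start site 1 for AKR1C3). Capitals mark a CCAAT box, a promoter motif searched on both strands after the sequences had been read.
AKR1C1 (chr10:4963165-4963414, forward): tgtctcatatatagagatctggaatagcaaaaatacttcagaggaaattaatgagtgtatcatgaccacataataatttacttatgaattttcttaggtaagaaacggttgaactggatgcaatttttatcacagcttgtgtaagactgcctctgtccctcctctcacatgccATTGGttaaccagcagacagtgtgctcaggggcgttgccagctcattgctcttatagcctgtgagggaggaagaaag
AKR1C2 (chr10:5003858-5004107, reverse): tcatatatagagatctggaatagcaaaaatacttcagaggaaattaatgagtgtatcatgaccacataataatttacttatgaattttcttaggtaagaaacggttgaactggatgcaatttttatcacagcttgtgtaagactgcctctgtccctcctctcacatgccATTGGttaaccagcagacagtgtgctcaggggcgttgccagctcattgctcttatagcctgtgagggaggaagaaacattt
AKR1C3 (chr10:5048531-5048780, forward): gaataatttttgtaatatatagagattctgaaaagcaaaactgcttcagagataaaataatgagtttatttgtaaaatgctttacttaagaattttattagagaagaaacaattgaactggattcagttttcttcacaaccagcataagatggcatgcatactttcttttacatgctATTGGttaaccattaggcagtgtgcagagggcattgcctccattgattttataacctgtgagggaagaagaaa
The AKR1C1 and AKR1C2 windows were 96.5% identical, and AKR1C3 was 71.4% identical to AKR1C1. All 3 held CCAAT on the reverse strand, with the first base at -77, -81 and -73 from the start site. Of 35116 promoter windows of this length 32% held it on either strand; the 3 windows are related copies and the motif was picked from them, so they are not set against that share. The core of the antioxidant response element, TGACNNNGC on either strand, was searched from 250 bases before to 50 after the start site. It was found in none of the AKR1C windows and not in that of AKR1A1, but 3 times before AKR7A2. At least 1 match was found in 13.3% of all windows, and how many held 3 was not counted. The 250 bases before the start site were 78.8% G or C for AKR7A2. For AKR1C1, AKR1C2 and AKR1C3 as printed they were 40.8%, 40% and 32%. AKR1B10 was named only, since it was not matched to a window. The AKR7A2 window, in which capitals mark the 3 matches, reads as follows.
AKR7A2 (chr1:19312147-19312396, reverse): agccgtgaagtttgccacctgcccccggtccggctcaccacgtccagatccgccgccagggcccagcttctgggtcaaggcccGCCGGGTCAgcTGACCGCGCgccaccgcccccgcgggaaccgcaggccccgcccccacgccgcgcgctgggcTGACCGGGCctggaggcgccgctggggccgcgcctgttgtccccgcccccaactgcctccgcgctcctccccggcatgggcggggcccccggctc
These windows cover the bases next to the start site only.

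Library totals ran from 20431980 to 35477712 expected counts. Colon epithelium markers fitted the label: of 11 genes, only CDX1 averaged under 1 CPM (a gene's count relative to the scaled total of its library), and the summed level of the list was 12500 to 16900 CPM over the groups. Summed group means were 1.44 to 2.43 CPM for 6 fibroblast markers, 8.4 to 13 CPM for 6 leukocyte markers, 1.44 to 2.25 CPM for 5 endothelial markers and 84 to 108 CPM for 6 hepatocyte markers. In these lists 5, 4, 4 and 5 genes averaged under 1 CPM; the others were COL1A1 (1.26 CPM), CD14 (3.59 CPM), CD68 (6.75 CPM), PECAM1 (1.7 CPM) and HNF4A (98.4 CPM), a transcription factor that colon epithelium also expresses. COL1A2 and CD3E were at 0 in 57 of the 60 libraries, ALB in 56 and KDR in 59. The first number of the sample codes splits the treatments into 4 code sets: vehicle with both inhibitors, Poria with Atractylodis, Glycyrrhizae with Ginseng, and Angelicae with Paeoniae. The vehicle codes carry the letter A before this number, which the inhibitor codes lack, so placing vehicle in their set is an inference. The titles of all 60 samples name BatchA. What this number means is not given, so an extract and its code set cannot be told apart against vehicle, while 500 against 20 µg/mL stays within a code set. In these bulk libraries a change in the share of cells that express a gene and a change in RNA per cell cannot be told apart.

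With Poria, AKR1B10 and the 3 AKR1C genes were highest at 500 µg/mL, and AKR1A1 and AKR7A2 were not. AKR1B10 stood at 102, 94.1 and 93.1 CPM in the 3 vehicle libraries, at 121, 119.5 and 109.6 with 20 µg/mL, at 150.2, 137 and 131 with 100 µg/mL and at 274, 246 and 261 with 500 µg/mL. Every Poria library was above every vehicle library, and the doses did not overlap each other. AKR1C2 went from 12.0, 11.5 and 12.2 CPM in vehicle to 18.2, 15.3 and 14.0, then 20.0, 15.1 and 17.9, and then 42.5, 36.4 and 37.3 CPM over the same doses. The libraries at 20 and 100 µg/mL overlapped for AKR1C2, for AKR1C1 (means 21.4 and 21.8 CPM) and for AKR1C3 (means 51.1 and 56.4 CPM), while those at 500 µg/mL were all above them. These 2 doses were not tested against each other.

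Against vehicle, 500 µg/mL of Poria raised 4 of the 6 genes, where 7.49% of all genes tested passed the same threshold in either direction (adjusted p under 0.05, edgeR's quasi-likelihood test with Benjamini-Hochberg adjustment). AKR1B10 had the smallest p of all 16767 genes, and rose by 1.43 ± 0.053 on the log2 scale (± SE throughout, adjusted p = 1.7e-25). The log2 fold change was 1.33 ± 0.098 for AKR1C1, 1.70 ± 0.11 for AKR1C2 and 1.26 ± 0.13 for AKR1C3. It was 1.36 for the AKR1C sum (adjusted p = 1.37e-13). AKR1C1 went from 16.6, 15.7 and 16.6 CPM to 42.6, 39.5 and 41.0 CPM. AKR1C3 went from 42.8, 37.3 and 34.1 CPM to 106.6, 82.3 and 84.2 CPM, again with no overlap. AKR1A1, at 0.01 ± 0.066, and AKR7A2, at 0.03 ± 0.057, did not pass, and their 95% intervals ran from -0.12 to 0.15 and from -0.08 to 0.14 on the log2 scale.

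At 100 µg/mL of Poria only 7 genes, or 0.0417% of those tested, passed against vehicle, and 2 of them were AKR1B10 (0.53 ± 0.053, adjusted p = 7.94e-09, the smallest p of all genes) and AKR1C2 (0.56 ± 0.11, adjusted p = 0.0329). AKR1C2 did not pass in a fit of the compared groups alone (adjusted p = 0.264), nor without vehicle replicate 1, 2 or 3 or without replicate 1 or 3 of this dose (adjusted p from 0.0661 to 0.504). AKR1C1 stood at 0.42 ± 0.10 and AKR1C3 at 0.57 ± 0.13, and neither passed, whereas the AKR1C sum did (0.53, adjusted p = 0.0237). At 20 µg/mL edgeR called none of the 6 and none of all genes (0%), and DESeq2 called 1 of the 6. An unadjusted p under 0.05 was reached by 4 of the 6 and by 834 of all 16767 genes. AKR1B10, at 0.27 ± 0.054, again had the smallest p of all genes (adjusted p = 0.0974). AKR1B10, AKR1C1, AKR1C2 and AKR1C3 were each higher in all 3 libraries at 20 µg/mL than in all 3 of vehicle, with log2 fold changes of 0.27 to 0.42. How many of all genes separated in this way was not counted, here or in any other comparison.

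**Figure D1:**
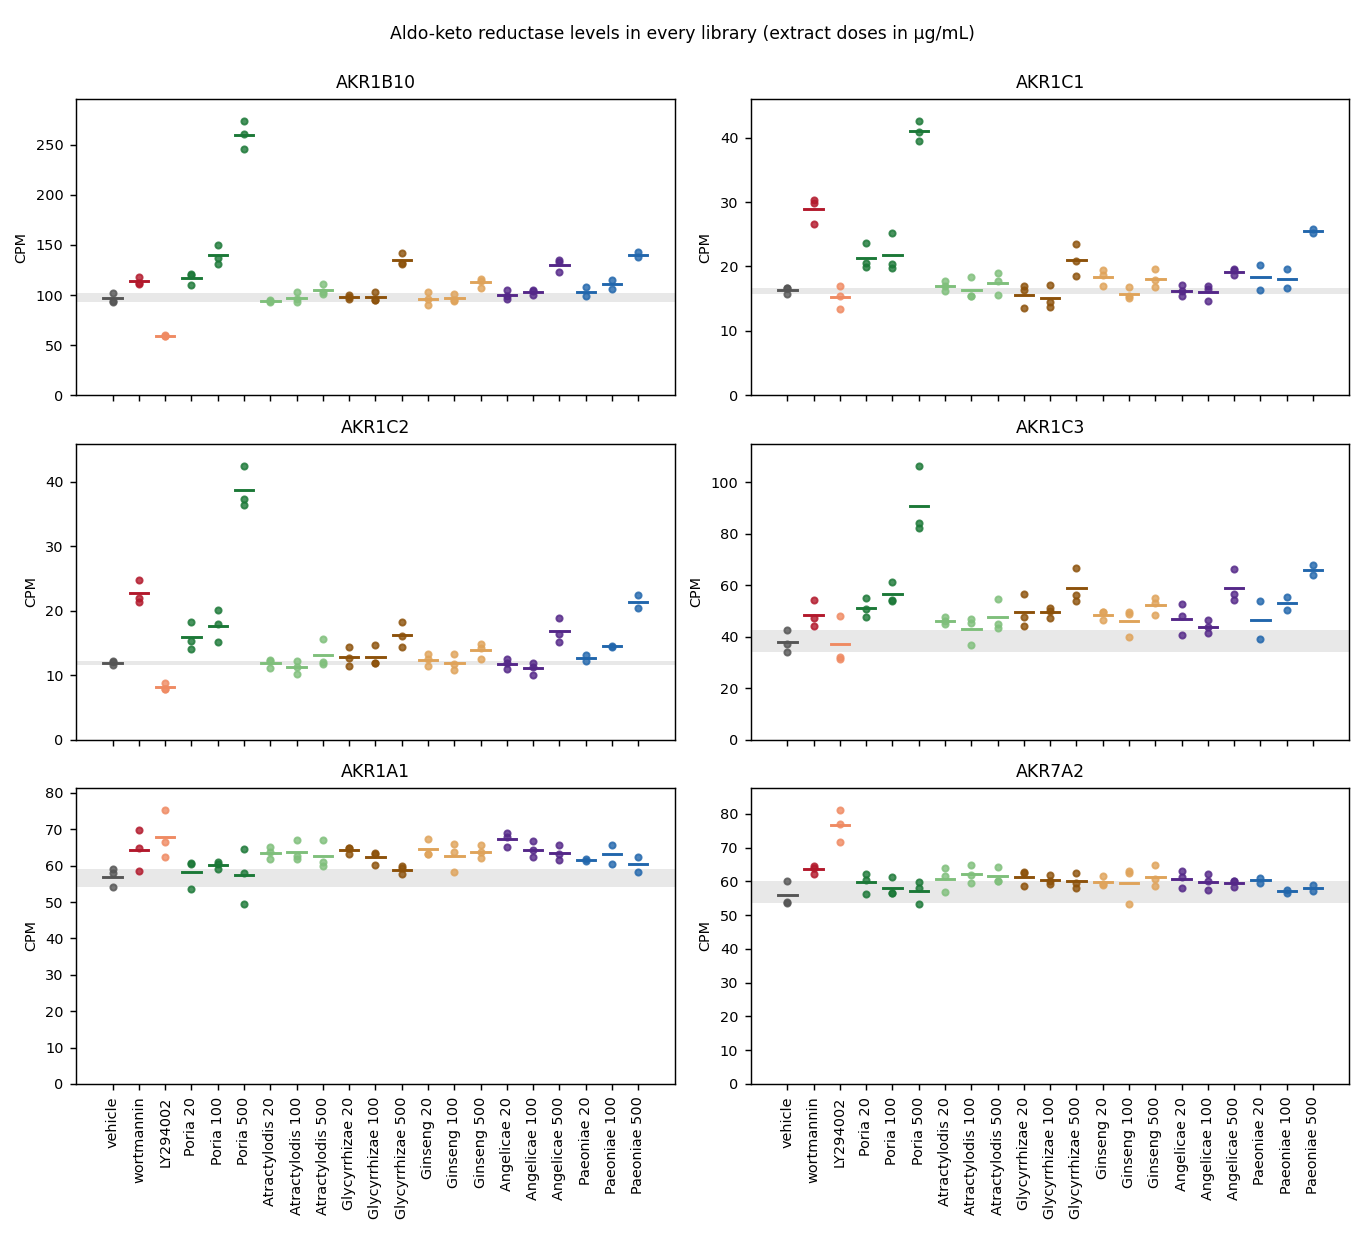
Level of each gene in CPM (y axis, from 0) in every library of the 21 groups (x axis, doses in µg/mL). Points are libraries, short lines are group means and the grey band spans the 3 vehicle libraries. The Poria 500 libraries are the highest of all for AKR1B10 and the AKR1C genes, LY294002 is the lowest for AKR1B10 and AKR1C2, and AKR1A1 and AKR7A2 span a narrow range.

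Within the Poria libraries, 500 against 20 µg/mL gave the same 4 genes, where 5.51% of all genes passed. AKR1B10 again had the smallest p of all genes (log2 fold change 1.16 ± 0.053, adjusted p = 8.44e-22). The difference was 0.94 ± 0.095 for AKR1C1, 1.29 ± 0.10 for AKR1C2 and 0.84 ± 0.13 for AKR1C3. It was 0.95 for the AKR1C sum (adjusted p = 6.1e-09). Of the colon epithelium markers, VIL1 fell by 0.29 and LGALS4 by 0.22 on the log2 scale in the same comparison, and 9 of 11 did not pass. Against vehicle 2 of the 11 also fell with 500 µg/mL. The summed level of the 11 was 13000 CPM at 500 µg/mL and 13200 CPM at 20 µg/mL. HNF4A, from the hepatocyte list, fell by 0.15 between the doses and by 0.14 against vehicle. The part of these markers in the result was not tested.

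Atractylodis, from the same code set as Poria, did not move any of the 6 genes past the threshold. At 500, 100 and 20 µg/mL edgeR called 0.25%, 0.364% and 0.137% of all genes against vehicle and none of the 6 at any dose. At an unadjusted p under 0.05 there were 4, 2 and 3 of the 6, beside 2473, 2324 and 1989 of all 16767 genes. DESeq2 called none of the 6 at any dose. AKR1B10 stood at 110.6, 101.5 and 103 CPM with 500 µg/mL and at 92.9, 94.8 and 93.6 CPM with 20 µg/mL. The 2 doses did not overlap, but the difference of 0.16 ± 0.054 on the log2 scale did not pass (adjusted p = 0.876). For 500 against 20 µg/mL edgeR called 0% of all genes and none of the 6, and DESeq2 none of the 6. An unadjusted p under 0.05 was reached by 1 of the 6 and by 857 of all 16767 genes. The 95% intervals of that comparison reached at most 0.27 for AKR1B10 and 0.37 for AKR1C2.

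At the matched dose of 500 µg/mL, Poria was above Atractylodis in the same 4 genes, and 1.85% of all genes passed. AKR1B10 differed by 1.31 ± 0.053 (adjusted p = 5.12e-24, the smallest p of all genes), AKR1C2 by 1.57 ± 0.11, AKR1C1 by 1.24 ± 0.096 and AKR1C3 by 0.94 ± 0.13 on the log2 scale. The AKR1C sum differed by 1.12 (adjusted p = 6.04e-11). AKR1A1, at -0.12 ± 0.065, and AKR7A2, at -0.11 ± 0.056, did not pass. The dose effects themselves (500 against 20 µg/mL) also differed between the extracts: 66 genes, or 0.394%, passed the test of this difference, 4 of them members. The difference was 0.99 ± 0.075 for AKR1B10, 0.91 ± 0.14 for AKR1C1, 1.15 ± 0.16 for AKR1C2 and 0.79 ± 0.18 for AKR1C3 (adjusted p = 4.13e-13, 0.000165, 9.13e-06 and 0.0224). For AKR1C3 the difference did not pass without Poria 500 replicate 1, Poria 20 replicate 2 or 3, Atractylodis 500 replicate 2 or 3, or Atractylodis 20 replicate 2 (adjusted p from 0.0629 to 0.133).

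**Figure D2:**
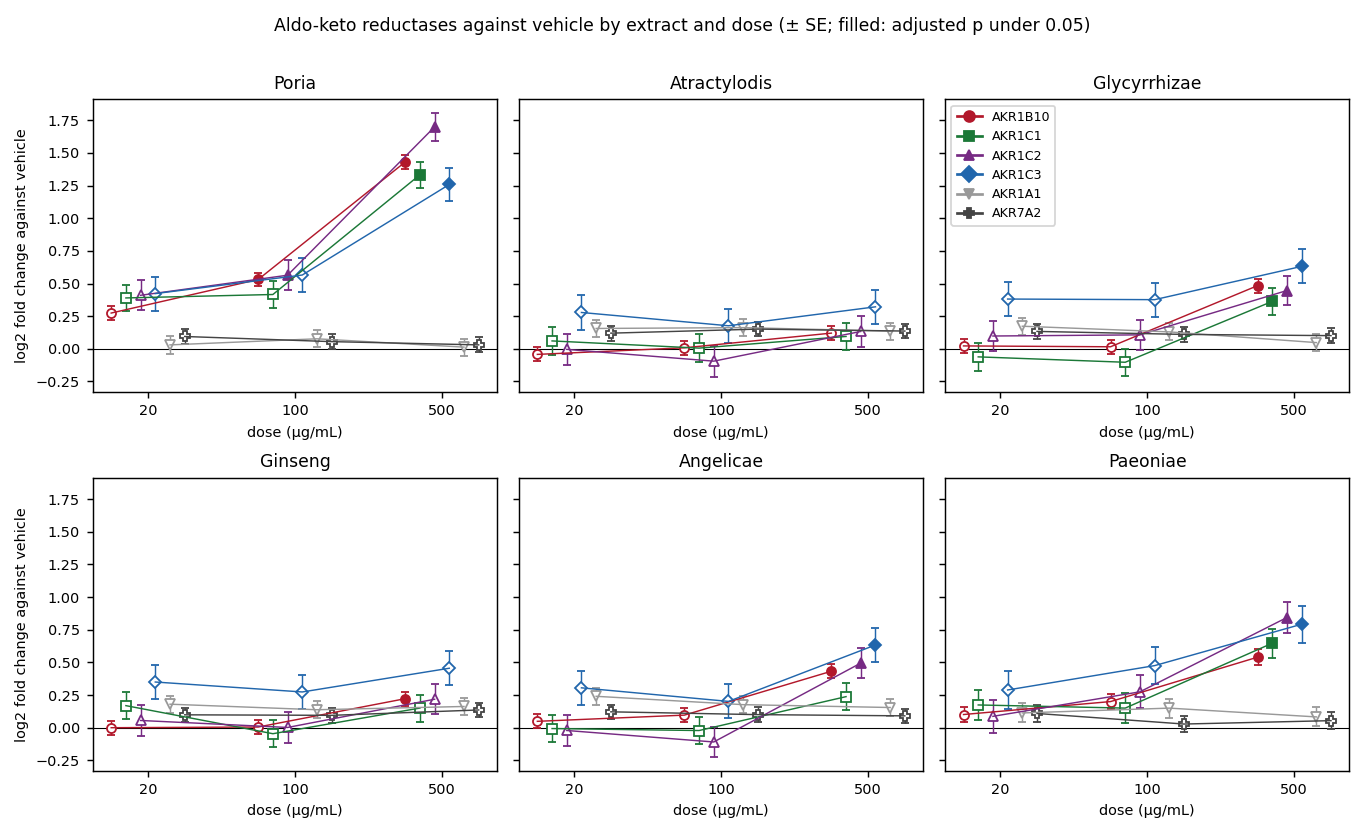
Log2 fold change against vehicle (y axis, ± SE) of the 6 genes by dose (x axis, µg/mL, equal steps) for each extract; points are set side by side for legibility. Filled symbols had an adjusted p under 0.05. Poria reached 1.26 to 1.70 at 500 µg/mL for AKR1B10 and the AKR1C genes, Paeoniae 0.54 to 0.84, and no symbol is filled for Atractylodis, AKR1A1 or AKR7A2.

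Paeoniae at 500 µg/mL came next: 4 of the 27 genes it moved (0.161% of those tested) were members, and AKR1B10 again had the smallest p of all genes. AKR1B10 was at 138 and 143 CPM in the 2 libraries, a log2 fold change of 0.54 ± 0.059 over vehicle (adjusted p = 6.07e-08). AKR1C2 was at 22.5 and 20.3 CPM (0.84 ± 0.12, adjusted p = 4.45e-05), AKR1C1 at 25.8 and 25.2 CPM (0.65 ± 0.11, adjusted p = 0.00121) and AKR1C3 at 64.1 and 67.8 CPM (0.79 ± 0.14, adjusted p = 0.00221). Both libraries were above all 3 of vehicle for each of these genes. The AKR1C sum rose by 0.76 (adjusted p = 9.03e-05). AKR1C3 did not pass without Paeoniae 500 replicate 2 (adjusted p = 0.144), where the remaining library is taken to vary like the other groups. At 100 and 20 µg/mL edgeR called 0.0477% and 0% of all genes and none of the 6, and DESeq2 none of the 6. An unadjusted p under 0.05 was reached by 4 and 1 of the 6, and by 2300 and 1163 of all 16767 genes.

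Between 500 and 20 µg/mL of Paeoniae only 6 genes passed (0.0358%). Among them were AKR1B10 (0.44 ± 0.065, adjusted p = 0.000147) and AKR1C2 (0.76 ± 0.13, adjusted p = 0.00372), with ranks 2 and 3 of all genes by p. The AKR1C sum, at 0.54, did not pass (adjusted p = 0.184). AKR1C1, at 0.47 ± 0.12, and AKR1C3, at 0.50 ± 0.15, had both libraries at 500 µg/mL above both at 20 µg/mL but did not pass (adjusted p = 0.325 and 1). AKR1B10 did not pass without Paeoniae 20 replicate 2 (0.39, adjusted p = 0.068). AKR1C2 did not pass without Paeoniae 500 replicate 1 or without either library at 20 µg/mL (adjusted p from 0.0763 to 0.307).

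Angelicae, the other extract of this code set, moved 27 genes at 500 µg/mL (0.161%), 3 of them members. AKR1B10 was at 135, 133 and 123 CPM, above all vehicle libraries (0.43 ± 0.053, adjusted p = 3.45e-06, the smallest p of all genes). AKR1C2 rose by 0.49 ± 0.11 (adjusted p = 0.0467) and AKR1C3 by 0.63 ± 0.13 (adjusted p = 0.0191). AKR1C1, at 0.24 ± 0.10, did not pass (adjusted p = 0.237) and the AKR1C sum did (0.52, adjusted p = 0.0191). Neither AKR1C2 nor AKR1C3 passed without vehicle replicate 2 or 3 or without Angelicae 500 replicate 1 or 3 (adjusted p from 0.062 to 0.256). At 100 and 20 µg/mL edgeR called 0.00596% and 0.173% of all genes and none of the 6, and DESeq2 none of the 6. An unadjusted p under 0.05 was reached by 1 and 3 of the 6, and by 2036 and 3067 of all 16767 genes.

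Of the 3 genes that passed between 500 and 20 µg/mL of Angelicae (0.0179%), AKR1B10 was the first by p (0.38 ± 0.053, adjusted p = 6.29e-05). AKR1C2, at 0.52 ± 0.11, did not pass (adjusted p = 0.0904), though all 3 libraries at 500 µg/mL were above all 3 at 20 µg/mL. Angelicae and Paeoniae at 500 µg/mL did not differ past the threshold in any of the 6 by edgeR or DESeq2 (0.0179% of all genes by edgeR). An unadjusted p under 0.05 was reached by 2 of the 6 and by 599 of all 16767 genes. The largest difference was in AKR1C1, lower with Angelicae by a log2 value of -0.41 ± 0.11 (95% interval -0.63 to -0.19, adjusted p = 0.679). The dose effects of these 2 extracts did not differ past the threshold in any of the 6 by either tool (0% of all genes by edgeR). An unadjusted p under 0.05 was reached by 0 of the 6 and by 410 of all 16767 genes. The 95% interval for AKR1B10 was -0.22 to 0.11.

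Glycyrrhizae at 500 µg/mL raised 4 of the 6 genes against vehicle, among 6.91% of all genes. AKR1B10 was at 142, 132 and 131 CPM (0.48 ± 0.053, adjusted p = 1.48e-08) and AKR1C3 at 66.7, 56.3 and 53.9 CPM (0.63 ± 0.13, adjusted p = 0.00108), both above all vehicle libraries. The AKR1C sum rose by 0.53 (adjusted p = 0.000568). AKR1C1 rose by 0.36 ± 0.10 (adjusted p = 0.0205) and AKR1C2 by 0.45 ± 0.11 (adjusted p = 0.0102). Neither of these passed without vehicle replicate 2 or without Glycyrrhizae 500 replicate 1, which left 2 of the 6 called, and AKR1C1 did not pass without vehicle replicate 3 (adjusted p from 0.0508 to 0.178). At 100 and 20 µg/mL edgeR called 0.34% and 0.37% of all genes and none of the 6, and DESeq2 none of the 6. An unadjusted p under 0.05 was reached by 1 and 3 of the 6, and by 2586 and 3049 of all 16767 genes.

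Between 500 and 20 µg/mL of Glycyrrhizae, AKR1B10 (0.46 ± 0.053, adjusted p = 1.24e-07) and AKR1C1 (0.42 ± 0.10, adjusted p = 0.0096) passed, as did 3.85% of all genes. AKR1C1 did not pass without Glycyrrhizae 500 replicate 1 or Glycyrrhizae 20 replicate 2 (adjusted p = 0.116 and 0.0895). The AKR1C sum, at 0.30 between these doses, did not pass (adjusted p = 0.0846). AKR1C3, which stood at 0.38 ± 0.13 over vehicle already at 20 µg/mL without passing, differed by 0.25 ± 0.13 between the doses (adjusted p = 0.318). Of 11 colon epithelium markers 2 fell in this comparison, VIL1 by 0.32 and LGALS4 by 0.22 on the log2 scale. Against vehicle 3 of the 11 fell with 500 µg/mL. The summed level of the 11 was 12900 CPM at 500 µg/mL and 13000 CPM at 20 µg/mL. HNF4A, from the hepatocyte list, fell by 0.25 between the doses and by 0.30 against vehicle. The part of these markers in the result was not tested.

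Ginseng had the smallest change among the extracts with a called member. At 500 µg/mL AKR1B10 was at 115.9, 114 and 107 CPM, above all vehicle libraries (0.22 ± 0.054, adjusted p = 0.0454), and it was the only member among the 0.352% of all genes that passed. It did not pass in a fit of the 2 groups alone (adjusted p = 0.196), nor without vehicle replicate 2 or 3 or without Ginseng 500 replicate 1, 2 or 3 (adjusted p from 0.066 to 0.297). At 100 and 20 µg/mL, and for 500 against 20 µg/mL, edgeR called 0% of all genes and none of the 6, and DESeq2 none of the 6. An unadjusted p under 0.05 was reached by 2, 2 and 1 of the 6, and by 1773, 2567 and 672 of all 16767 genes. AKR1B10 was higher with Glycyrrhizae than with Ginseng at 500 µg/mL (0.26 ± 0.053, adjusted p = 0.00191, where 2.48% of all genes passed). No member passed the test of a difference in dose effect between them by edgeR (0.0477% of all genes) or DESeq2. An unadjusted p under 0.05 was reached by 2 of the 6 and by 1047 of all 16767 genes. The 95% interval was 0.09 to 0.39 for AKR1B10.

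Against vehicle the 2 PI3K inhibitors, both at 10 µM, moved AKR1B10 and AKR1C2 in opposite directions. AKR1B10 stood at 118, 111 and 112 CPM with wortmannin and at 60.3, 58.8 and 59.4 CPM with LY294002, on either side of the vehicle libraries and without overlap. AKR1C2 stood at 24.8, 22.0 and 21.3 CPM with wortmannin and at 8.75, 7.78 and 7.84 CPM with LY294002, also with vehicle between them. Wortmannin raised 4 of the 6 genes, where 13.7% of all genes passed: AKR1B10 by 0.24 ± 0.054 (adjusted p = 0.00142), AKR1C1 by 0.82 ± 0.10 (adjusted p = 2.83e-08), AKR1C2 by 0.93 ± 0.11 (adjusted p = 2.24e-08) and AKR7A2 by 0.18 ± 0.056 (adjusted p = 0.02). AKR7A2 did not pass without vehicle replicate 2 or 3 or wortmannin replicate 1 or 2, or in a fit of the 2 groups alone (adjusted p from 0.0568 to 0.106). AKR1C3, at 0.35 ± 0.13, and AKR1A1, at 0.18 ± 0.066, did not pass (adjusted p = 0.0648 and 0.0637). Of 11 colon epithelium markers, 4 rose with wortmannin (summed level 14400 CPM against 12700 CPM in vehicle), and their part in the result was not tested.

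LY294002 moved 39.2% of all genes, and 4 members: it lowered AKR1B10 (log2 fold change -0.70 ± 0.055, adjusted p = 1.69e-14) and AKR1C2 (-0.55 ± 0.12, adjusted p = 0.000264), and raised AKR1A1 (0.25 ± 0.065, adjusted p = 0.00151) and AKR7A2 (0.45 ± 0.056, adjusted p = 4.91e-09). AKR7A2 was at 71.7, 76.8 and 81.1 CPM, against 60.1, 54.0 and 53.6 CPM in vehicle, and AKR1A1 at 62.3, 66.4 and 75.3 CPM against 59.0, 57.9 and 54.1 CPM. For both genes all LY294002 libraries were above all of vehicle, and LY294002 was the group with the highest mean. AKR1C1, at -0.10 ± 0.11, and AKR1C3, at -0.04 ± 0.13, did not pass. AKR1C3 was at 31.9, 31.3 and 48.1 CPM with LY294002, so that 2 libraries were below vehicle and 1 above it. Of 11 colon epithelium markers, 8 rose and 1 fell with LY294002, with a summed level of 16900 CPM against 12700 CPM in vehicle, and the part of this in the result was not tested.

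Compared with each other, wortmannin was above LY294002 in AKR1B10 (0.94 ± 0.055, adjusted p = 6.37e-18), AKR1C1 (0.92 ± 0.099), AKR1C2 (1.48 ± 0.12) and AKR1C3 (0.39 ± 0.13, adjusted p = 0.0248), and below it in AKR7A2 (-0.27 ± 0.055, adjusted p = 0.000226), where 22.2% of all genes passed. For AKR1C3 the libraries overlapped, and the call was lost without wortmannin replicate 1, LY294002 replicate 1 or LY294002 replicate 2 and in a fit of the 2 groups alone (adjusted p from 0.133 to 0.164). Without LY294002 replicate 3 the value rose to 0.62 (adjusted p = 0.000562). The AKR1C sum was higher with wortmannin by 0.73 (adjusted p = 4.23e-07). AKR1A1 did not pass (-0.08 ± 0.065). Of 11 colon epithelium markers 1 was higher and 6 were lower with wortmannin than with LY294002. Of the other lists, both leukocyte markers tested, 1 of 2 fibroblast, 1 of 2 endothelial and 1 of 3 hepatocyte markers were higher and 1 hepatocyte marker was lower; the summed leukocyte level was 13 against 8.4 CPM. The part of these markers in the result was not tested.

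**Figure D3:**
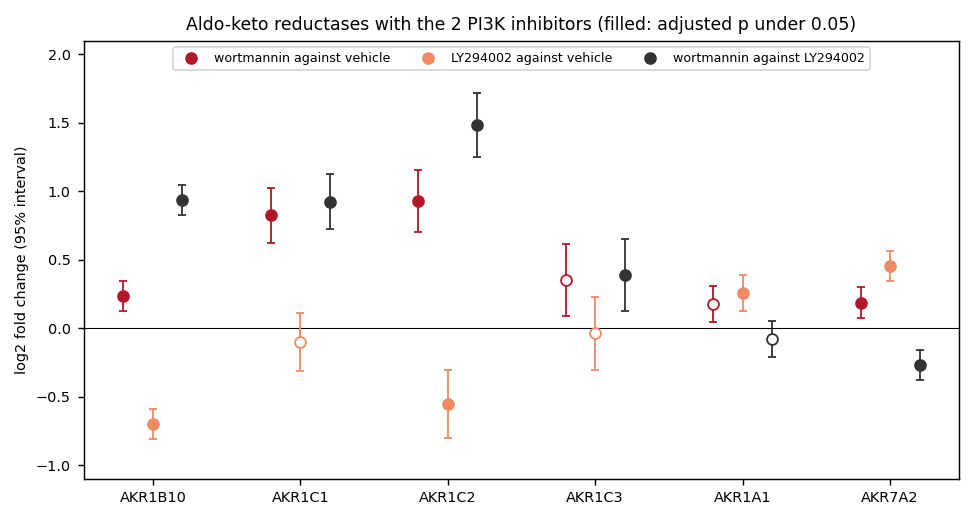
Log2 fold change (y axis, with 95% interval) of the 6 genes (x axis) for wortmannin against vehicle, LY294002 against vehicle and wortmannin against LY294002. Filled points had an adjusted p under 0.05. AKR1B10 and AKR1C2 lie above 0 with wortmannin and below 0 with LY294002, and AKR7A2 lies above 0 with both.

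The division of counts among the AKR1C genes also varied between groups. AKR1C2 took 18.1% ± 1.3 (SD, n = 3) of the summed AKR1C expected counts in vehicle, 22.7% ± 0.33 with wortmannin, 22.7% ± 0.47 with 500 µg/mL of Poria and 13.8% ± 2.8 with LY294002. Its libraries in vehicle ran from 16.9% to 19.5%, below all of those with wortmannin (22.3% to 23.0%) and Poria 500 (22.2% to 23.0%) and above all of those with LY294002 (10.8% to 16.2%). Over the other 17 groups its mean share lay between 15.6% and 19.0%. AKR1C3 took 57.3% ± 2.9 in vehicle and 48.4% ± 1.8 with wortmannin. The sum of the 3 genes, which the division of reads among them does not touch, was 66.3 ± 4.5 CPM in vehicle. It was 100.2 ± 8.0 CPM with wortmannin and 60.4 ± 10.8 CPM with LY294002. The tested AKR1C sum, with AKR1C4 and AKR1C8 added, had a log2 fold change over vehicle of 0.59 with wortmannin (adjusted p = 4.53e-05). With LY294002 it was -0.14 (adjusted p = 0.316).

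**Figure D4:**
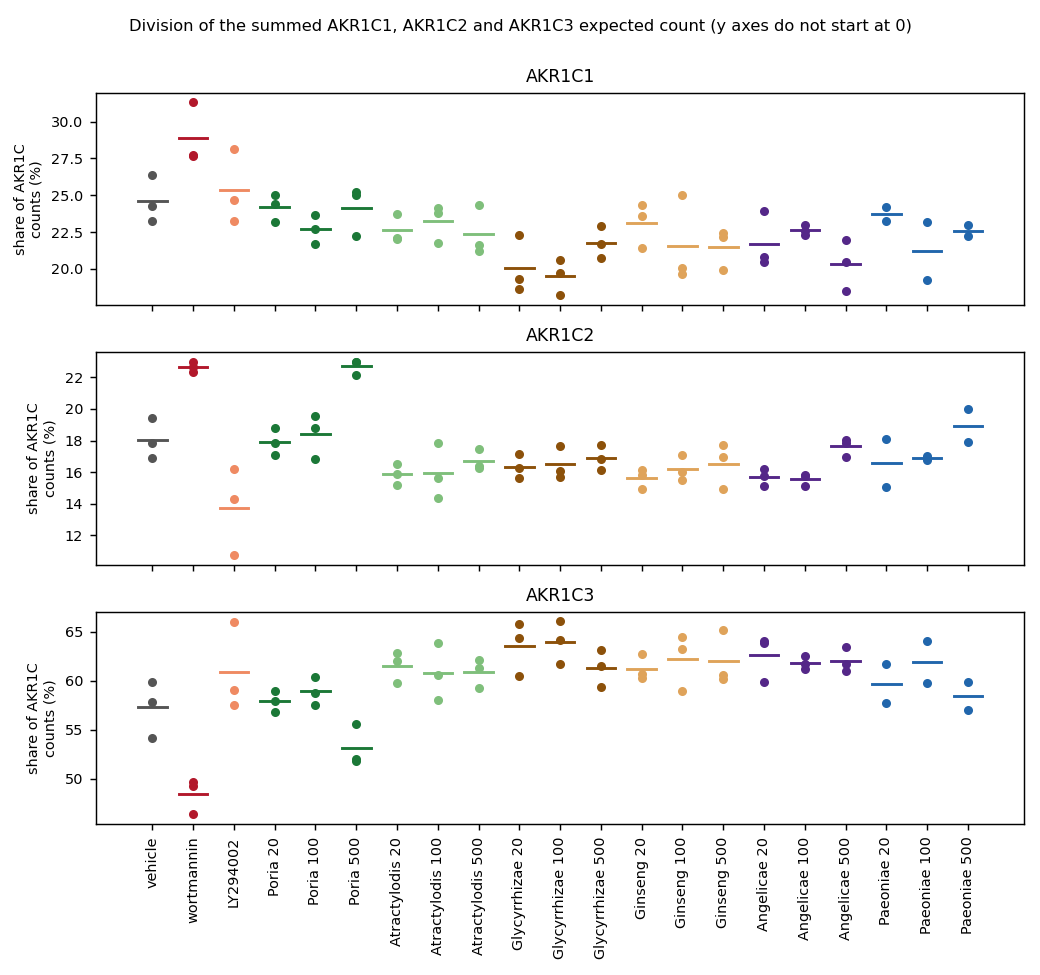
Share (%) of AKR1C1, AKR1C2 and AKR1C3 in their summed expected count (y axes, not from 0) in every library of the 21 groups (x axis, doses in µg/mL); points are libraries and lines group means. The AKR1C2 share is 22.7% with wortmannin and Poria 500 and 13.8% with LY294002, against 18.1% in vehicle.

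Across the 21 groups AKR1B10 spanned 4.38-fold between the lowest mean, 59.5 CPM with LY294002, and the highest, 260.3 CPM with Poria 500, and AKR1C2 4.77-fold between the same groups. Of the 20 pairs of neighbours in the order of AKR1B10 means, 3 did not overlap: Poria 500 stood above Paeoniae 500, LY294002 below Atractylodis 20, and the set of Paeoniae 500 (140.4 CPM), Poria 100 (139.6 CPM), Glycyrrhizae 500 (135 CPM) and Angelicae 500 (130.3 CPM) above Poria 20 (116.7 CPM). Within that set neighbours overlapped, as did all those from Poria 20 down to Atractylodis 20 (93.8 CPM). AKR1C2 followed a like order, except that wortmannin (22.7 CPM) ranked second. AKR1C1 spanned 2.72-fold, AKR1C3 2.45-fold, AKR7A2 1.37-fold and AKR1A1 1.19-fold.

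AKR1C3, AKR1A1 and AKR7A2 had a higher mean in all 18 extract groups than in vehicle. All of these comparisons share the same 3 vehicle libraries, and how many of all genes had this pattern was not counted. For AKR1A1 and AKR7A2 no extract dose passed the test, and vehicle (57.0 and 55.9 CPM) was the lowest of the 21 groups. Both inhibitors, placed in the vehicle's code set by inference, were also above vehicle for these 2 genes. A low level in the vehicle libraries, an extract and its code set cannot be told apart in this shift. Between 500 and 20 µg/mL of an extract the log2 fold change was -0.13 to -0.02 for AKR1A1 and -0.06 to 0.04 for AKR7A2, and none passed. AKR1C3 at 20 µg/mL had a log2 fold change of 0.28 to 0.42 over vehicle in the 6 extracts, with none past the threshold.

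As a description over the 21 group means on the log2 scale, which come from the same libraries and scaling, AKR1B10 correlated (Pearson's r) with AKR1C3 at 0.933, with AKR1C2 at 0.928 and with AKR1C1 at 0.845, and AKR1C1 with AKR1C2 at 0.955. With AKR1A1 it correlated at -0.649 and with AKR7A2 at -0.63. AKR1C1 and AKR1C2 share reads, whose division enters their correlation. Poria 500 was the highest group for AKR1B10 and the AKR1C genes, and no correlation was computed without it. Among 10610 other genes with a mean of at least 5 CPM, the patterns most like AKR1B10 were those of TKT (0.962), a transketolase of the pentose phosphate pathway, UGT1A6 (0.932), a glucuronosyltransferase, GSR (0.931), the glutathione reductase, GPAT3 (0.926), a glycerol-3-phosphate acyltransferase, and ALDH3A1 (0.909), an aldehyde dehydrogenase. For AKR1C2 they were ALDH3A1 (0.946), TKT (0.877), EPHB6 (0.857), VSIG10L (0.854) and EPHX1 (0.852), the microsomal epoxide hydrolase. ALDH3A1 averaged 28.7 CPM in vehicle, 58.5 CPM with Poria 500, 42.4 CPM with Paeoniae 500, 42.9 CPM with wortmannin and 19.9 CPM with LY294002.

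Other genes of the pathway moved with the members in Poria. Of 32 other NRF2 target genes tested, 26 rose and none fell with 500 µg/mL against vehicle, where 7.49% of all genes passed. The median log2 fold change was 0.435 against -0.01 for all genes. Between 500 and 20 µg/mL 24 rose and none fell, where 5.51% of all genes passed (median 0.355 against -0.0021). In the second comparison SLC7A11, the cystine transporter, rose by 0.80 ± 0.088, GCLM, a subunit of the enzyme that starts glutathione synthesis, by 0.71 ± 0.071, and OSGIN1 by 0.66 ± 0.097. The list rose in 15 of 32 genes with Glycyrrhizae, in 4 with Paeoniae and in 3 with Angelicae at 500 µg/mL, with none falling (medians 0.18, 0.184 and 0.115). Of all genes, 6.91%, 0.161% and 0.161% passed in these comparisons. NQO1, the quinone reductase, was among the genes that rose with each of Poria (0.63 ± 0.052), Glycyrrhizae (0.34 ± 0.052), Paeoniae (0.40 ± 0.058) and Angelicae (0.25 ± 0.052) at 500 µg/mL against vehicle. With Ginseng at 500 µg/mL none of the 32 passed (0.352% of all genes), and with Atractylodis at 500 µg/mL 1 rose (0.25% of all genes passed).

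With the inhibitors the list moved in both directions. LY294002 raised 5 and lowered 10 of the 32, where 39.2% of all genes passed (3129 higher and 3436 lower; median -0.06 against 0.01 for all genes), among the latter MGST1 (-0.69 ± 0.080), SLC7A11 (-0.60 ± 0.090) and TRIM16L (-0.57 ± 0.090), and among the former ABCC3 (0.67 ± 0.057), a multidrug transporter, HMOX1 (0.40 ± 0.11) and NQO1 (0.21 ± 0.052). Wortmannin raised 4, with ABCC3 (0.38 ± 0.057) first, and lowered 6, with SLC7A11 (-0.40 ± 0.089) first, where 13.7% of all genes passed (median -0.01 against 0). The 4 that rose with wortmannin, as AKR1C1 and AKR1C2 did, were ABCC3, EPHX1 (0.18 ± 0.060), IDH1 (0.17 ± 0.037) and NQO1 (0.15 ± 0.052). Among the 6 that fell were SLC7A11, TRIM16 (-0.36 ± 0.076) and TRIM16L (-0.29 ± 0.089).

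**Figure D5:**
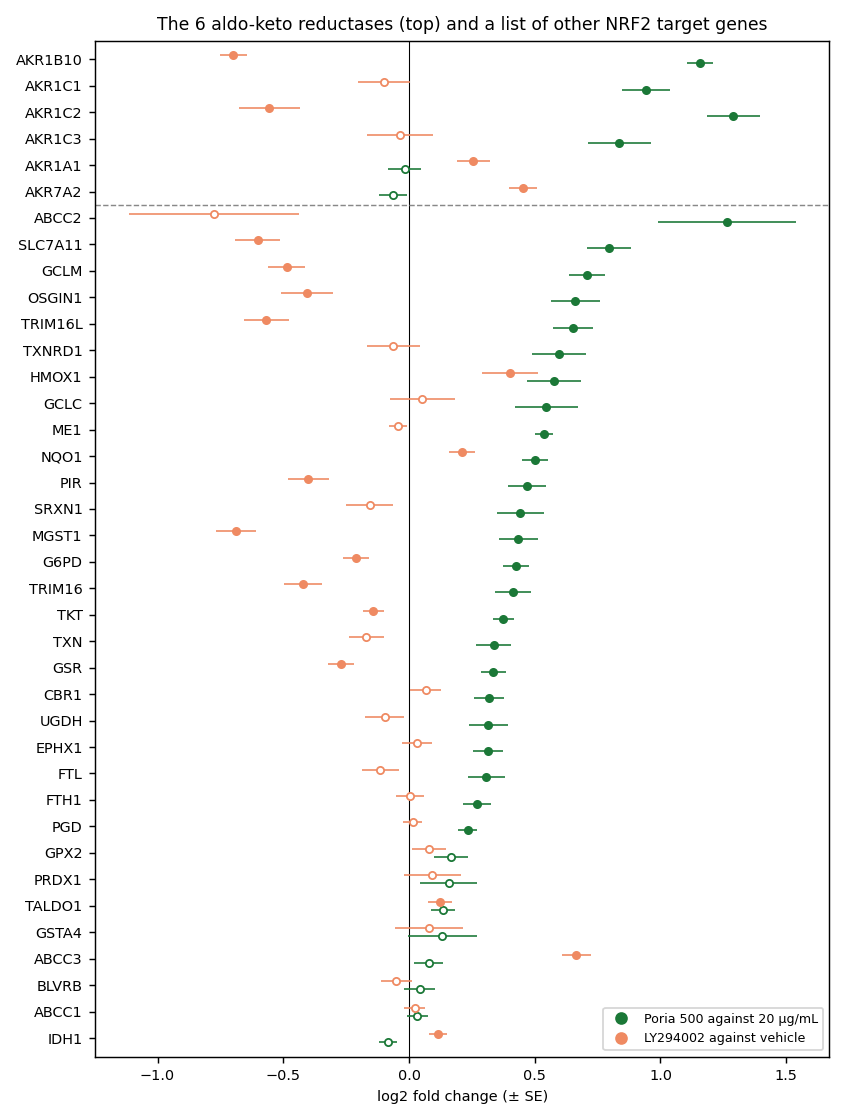
Log2 fold change (x axis, ± SE) of the 6 aldo-keto reductases (above the dashed line) and of 32 other NRF2 target genes (below it, ordered by the Poria value) for Poria 500 against 20 µg/mL and for LY294002 against vehicle. Filled points had an adjusted p under 0.05; 24 of the 32 rose with the Poria dose, and 5 rose and 10 fell with LY294002.

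Of 10 regulators of the pathway, KEAP1 (0.25 ± 0.070) and MAFG (0.22 ± 0.048), a small MAF partner of NRF2, rose with 500 µg/mL of Poria against vehicle. In that comparison 7.49% of all genes passed. NFE2L2, the gene of NRF2 itself, stood at -0.04 ± 0.057 in that comparison (adjusted p = 0.74). With LY294002, 3 of the 10 rose and 3 fell, where 39.2% of all genes passed (3129 higher and 3436 lower). Those that rose were BACH1 (0.25 ± 0.069), BTRC (0.23 ± 0.080) and NFE2L1 (0.08 ± 0.033). Those that fell were MAFG (-0.26 ± 0.048), CUL3 (-0.24 ± 0.039) and NFE2L2 (-0.24 ± 0.057). With wortmannin BACH1 rose (0.25 ± 0.069), and MAFG (-0.15 ± 0.048) and CUL3 (-0.14 ± 0.039) fell, where 13.7% of all genes passed. Between 500 and 20 µg/mL of Poria, MAFG (0.20 ± 0.048) and CUL3 (0.13 ± 0.039), which builds the KEAP1 ubiquitin ligase, passed, as did 5.51% of all genes. No regulator passed at 500 µg/mL of Glycyrrhizae, Angelicae or Paeoniae, where 6.91%, 0.161% and 0.161% of all genes passed.

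Of 8 further aldo-keto reductases tested, AKR1B1, KCNAB3 and AKR1C4 averaged under 1 CPM and AKR1E2 (1.01 CPM) and KCNAB1 (1.21 CPM) little more. None of the 8 passed with Poria 500 against vehicle (edgeR, median 0.15), where 7.49% of all genes passed. Only AKR7L (-0.28 ± 0.084) passed between 500 and 20 µg/mL, falling, as 5.51% of all genes passed. Only KCNAB2 (0.49 ± 0.12) passed with LY294002, rising, as 39.2% of all genes passed. AKR7A3 was higher with wortmannin than with LY294002 (0.17 ± 0.058, adjusted p = 0.0267), where 22.2% of all genes passed. Among 14 aldehyde dehydrogenases, Poria 500 raised ALDH3A1 (1.03 ± 0.055), ALDH3A2 (0.48 ± 0.059) and ALDH1A1 (0.35 ± 0.058) and lowered 2 against vehicle. Between 500 and 20 µg/mL ALDH3A1 rose by 0.80 ± 0.054 with Poria and 0.72 ± 0.056 with Glycyrrhizae. It rose by 0.55 ± 0.067 with Paeoniae and 0.37 ± 0.056 with Angelicae. Of all genes 5.51%, 3.85%, 0.0358% and 0.0179% passed in these comparisons. Of 13 other carbonyl reductases, Poria 500 raised NQO1, CBR1 (0.44 ± 0.060), which reduces carbonyls of quinones and prostaglandins, and PTGR1 (0.44 ± 0.050), which reduces 15-oxo-prostaglandins and other enones, and lowered DHRS2 (-0.73 ± 0.11). Of 15 genes of retinoid metabolism, STRA6, the retinol-binding protein receptor, fell (-0.41 ± 0.13) and 1 other rose, and of 18 genes of steroid and prostaglandin metabolism only PTGES3 (0.21 ± 0.048) rose. The counts with Poria 500 for these lists are against vehicle, where 7.49% of all genes passed in either direction.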

How the data were processed

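RNA-seq libraries of HT29 cells (RIN above 7, directional library kit, paired-end reads of 100 bases, per the labels' protocols) were quantified by the authors, who deposited RSEM's expected counts per gene in 1 table. The submitters' processing notes name FastQC 0.11.9, Trim Galore 0.6.5, STAR 2.7.3a and RSEM 1.3.3 with GRCh38; RSEM divides a read that fits several genes among them. No source used here gives the annotation release or strand setting.

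Of 273 columns, 60 matched a sample by name and 213 were not used. Expected counts (24.2% of values above 0 not whole) were rounded, filtered with filterByExpr (minimum count 10, minimum total 15), scaled by TMM and tested in 1 model of 21 groups (39 residual degrees of freedom) with edgeR 4.0.16's quasi-likelihood test in R 4.3.3, with limma 3.58.1. In each of 33 comparisons Benjamini-Hochberg adjustment ran over all 16767 genes; a call is an adjusted p under 0.05, tests are two-sided and SE is the log2 fold change divided by the root of F. CPM values use the TMM-scaled totals. Nearest patterns are the 5 genes of highest Pearson's r with a mean of at least 5 CPM, and up to 3 genes per direction were named from each list by size of change; NFE2L2 with Poria, which did not pass, was named for its role. The members, lists and rules were chosen with earlier results of these data known. Alternatives were DESeq2 1.42.0, RLE size factors, library totals, no filter, the compared groups alone, a replicate block, the AKR1C genes summed (with AKR1C4 and AKR1C8) and leaving out each library. Scripts were tested on simulated data. No pair of replicates agreed within counting noise (57 pairs; lowest median chi-square 0.694, against 0.455 from counting alone).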

Additional observations from a re-analysis of the deposited data

Results flagged for a closer look

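The effect of dose, 500 against 20 µg/mL, differed between Poria and Atractylodis in 4 of the 6 genes by the edgeR test of that difference (adjusted p under 0.05 over all genes). The difference in log2 fold change was 0.9938 for AKR1B10, 0.9087 for AKR1C1, 1.153 for AKR1C2 and 0.7921 for AKR1C3. Both extracts belong to the same code set. The values of AKR1C1, AKR1C2 and AKR1C3 share reads. The AKR1C sum, which also held AKR1C4 and AKR1C8, differed by 0.8921 (adjusted p = 0.000507).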

How the results depend on the processing

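No log2 fold change of the 49 called values changed sign under any alternative run. DESeq2, RLE size factors, library totals, no filter and the replicate block each kept all 49 calls; the replicate block gave 1.43 for AKR1B10 with Poria 500 (adjusted p = 1.22e-29). Replicate numbers met the rule for pairing in 0 of 30 comparisons. In fits of the compared groups alone 45 of 49 calls held, and AKR1B10 with Ginseng 500 stood at 0.215 (adjusted p = 0.196). Leaving out 1 library at a time kept 36 of the 49 calls throughout and lost 13 without some library. The log2 fold change of AKR1B10 then ran from 0.1966 to 0.2669 with Ginseng 500 and from 0.3868 to 0.4948 for Paeoniae 500 against 20, and the calls were lost in 5 of 6 and 1 of 4 of these fits.

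Counts of the 6 genes called are given where they moved by over 1.5 times. Most did so without the filter on low counts. The count was then 4 for Poria 100, 4 for Poria 20, 1 for Atractylodis 500, 1 for Atractylodis 20, 1 for Glycyrrhizae 100, 1 for Glycyrrhizae 20, 2 for Ginseng 500, 1 for Ginseng 100, 1 for Ginseng 20, 2 for Angelicae 20, 2 for Paeoniae 100 and 1 for Paeoniae 20 against vehicle. For 500 against 20 µg/mL it was 4 for Glycyrrhizae, 1 for Ginseng, 3 for Angelicae and 4 for Paeoniae, and it was 1 for Angelicae against Paeoniae and 1 for the dose effect of Glycyrrhizae minus Ginseng. In fits of the compared groups alone it was 1 for Poria 100, 1 for Glycyrrhizae 100, 0 for Ginseng 500 and 1 for Angelicae 20. Of all genes 1, 152, 3 and 388 passed in these fits, against 7, 57, 59 and 29 in the main fit. With the replicate block the count of the 6 was 1 for Poria 20, 1 for Angelicae 20, 1 for Ginseng 500 against 20 and 2 for Angelicae 500 against 20. With DESeq2 it was 1 for Poria 20, 2 for Ginseng 500 and 2 for Angelicae 500 against 20. Of all genes 1, 134 and 6 passed with DESeq2 there, against 0, 59 and 3 in the main fit. With library totals the count of the 6 was 1 for Angelicae 20. Without 1 library the number ran from 1 to 2 for Poria 100, 0 to 1 for Poria 20, 2 to 4 for Glycyrrhizae 500, 0 to 1 for Ginseng 500 and 1 to 3 for Angelicae 500 against vehicle, and from 1 to 3 for Glycyrrhizae and 0 to 2 for Paeoniae at 500 against 20. Smaller moves were DESeq2's 5 for wortmannin and 3 for Poria 100, and, without 1 library, 3 to 6 for wortmannin, 3 to 4 for Paeoniae 500, 4 to 5 for wortmannin against LY294002 and 3 to 4 for the dose effect of Poria minus Atractylodis. DESeq2 called 2195 of all genes for wortmannin and 14 for Poria 100. Without 1 library, 2 to 8 of all genes passed for Poria 100 and 0 to 1 for Poria 20. The range was 552 to 1097 for Glycyrrhizae 500, 0 to 241 for Ginseng 500 and 1 to 125 for Angelicae 500. For Glycyrrhizae 500 against 20 it was 192 to 578. It was 1570 to 2186 for wortmannin and 2643 to 3758 for wortmannin against LY294002. For the dose effect of Poria minus Atractylodis it was 34 to 62. The cause was not tested.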
